A study of Mus musculus with 77 samples.

Results

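Microglia and macrophages of the retina were followed through 10 genes that mark them: Csf1r, Aif1, Cx3cr1, P2ry12, Tmem119, Cd68, Itgam, Trem2, Tyrobp and Ptprc. Members were all probes, controls left out, whose transcript maps to one of these symbols. They were 16 probes, out of 55681 probes and 21154 named genes on the array. Csf1r, Cx3cr1 and Itgam had 3 probes each and the other genes 1. Each gene was counted once, by the probe with the brightest retina signal, and the other probes are described beside it.

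The samples were whole retinas of 77 C57BL/6 mice of the oxygen-induced retinopathy (OIR) model. Litters were assigned at random to 75% oxygen (hyperoxia, the OIR mice) or to 21% oxygen (normoxia, the control mice) from P7 to P12, and all mice were then kept in room air. Both retinas of a mouse were pooled, and RNA was taken on P12 (12 control and 13 OIR mice), P17 (12 and 13) or P28 (14 and 13). Each sample was hybridised on a 2-colour array beside Universal Mouse Reference RNA, a mixture of RNA of other mouse cells and tissues. The paper that reported these mice lists fewer litters than mice in each oxygen group, so some mice of 1 litter are counted as separate. Which mice share a litter is not in the sources used here. No mouse carried a transgene, and no cell was sorted.

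Microglia are the resident macrophages of the retina. They enter the tissue during development, depend on signaling through CSF1R to survive, and at rest extend processes that survey neurons and vessels. After injury they change shape, divide and take up debris, and blood monocytes can enter and become macrophages that share most of their marker genes. In the OIR model, hyperoxia destroys existing central vessels and halts normal vessel growth. The return to room air leaves the central retina hypoxic, and new vessels grow in tufts on the retinal surface around P17 and then regress.

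All values are log2 ratios of retina over reference on the same array. The labels assign the retina to the Cy5 dye, but the files show the opposite. All 6 rod genes examined were brighter in Cy3 on 77 of 77 arrays. Cy3 was therefore read as retina, and every sign given here rests on that reading, which opposes the labels. A second choice also matters, since most of these genes are dim in whole retina. The main values, called the offset ratio, add 50 intensity units to both channels after background correction, which by construction draws the ratio of a dim spot toward 0. The deposited ratio is the log2 ratio of the authors' processed signals without such an offset, so its values are larger for dim spots. With group means removed, its SD between mice was smaller than on the offset ratio for Trem2 (0.32 against 0.43) and Cd68 (0.41 against 0.46). For the other genes followed here its SD was larger, as for Aif1 (0.39 against 0.15). A gene was called where limma's adjusted p over all 55681 probes was under 0.05. Negative ratios say only that the probe was brighter in the reference mixture.

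The genes differed in how well the arrays saw them. The brightest probes of Csf1r, Cx3cr1, Cd68 and Itgam stood well above background in retina on 77 of 77 arrays, and Trem2 and Tyrobp on 75 each. Aif1 was detected on 62, Tmem119 on 39, P2ry12 on 27 and Ptprc on 12. Ptprc was above background in no P12 array, no control array of P17 and 1 OIR array of P17, so no fold is given for it at P12 or P17. The P28 arrays were brighter as a whole. Their medians were 32169.5 probes above background in control and 32885 in OIR mice, against 20050 to 21099.5 in the other 4 groups. One of 4 scan dates, with a median of 32050, held 20 of the 27 P28 arrays, 11 of OIR and 9 of control mice. Of the other P28 arrays, 5 control arrays and 0 OIR arrays were on another scan date. Each of the remaining dates held 1 OIR array and 0 control arrays of P28. Part of any difference between P28 and the earlier days therefore cannot be told apart from the scan. The same holds for part of any difference between OIR and control mice on P28. Aif1 was above background in 5 of 12 control mice on P17 and in 12 of 13 OIR mice on that day. P2ry12 was above background in 1 of 12 and 2 of 13.

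**Figure D1:**
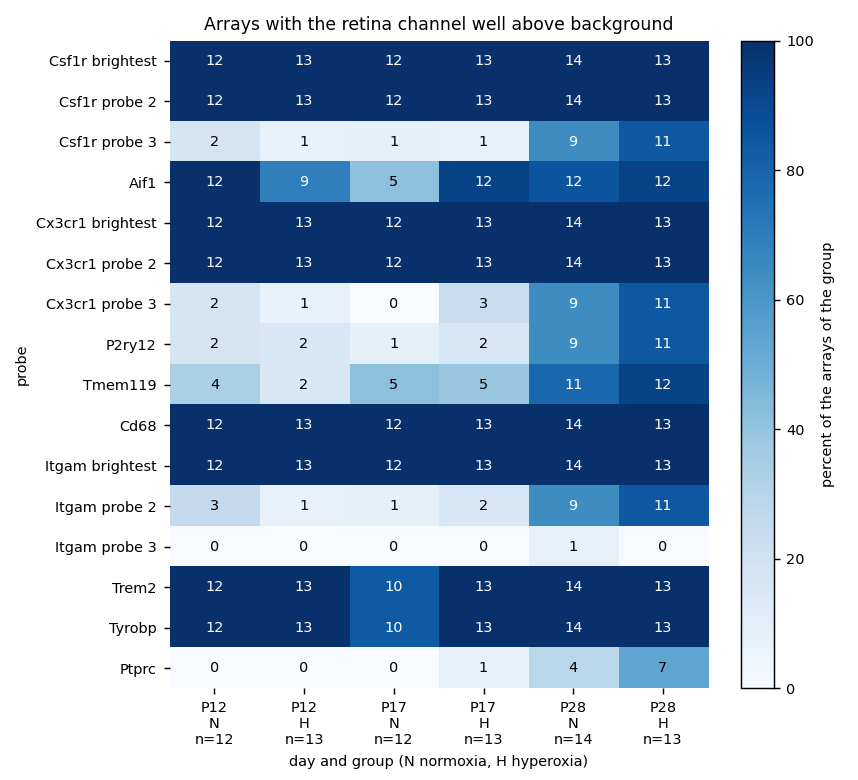
Number of arrays on which each of the 16 member probes stood well above background in retina, in 6 columns by day and group (N normoxia, H hyperoxia), with the colour giving the percent of the arrays of that group. The brightest probes of Csf1r, Cx3cr1, Cd68 and Itgam are filled in every column, P2ry12 and Ptprc are pale before P28, and Aif1 has 5 of 12 arrays in P17 normoxia and 12 of 13 in P17 hyperoxia.

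Of the 10 genes, 7 had a promoter window among those searched in the RefSeq table of GRCm38.p6. A window runs from 250 bases before to 50 bases after a start site. Windows on 1 chromosome were left out of the search of member genes but kept in the total of all windows. Whether this left out a window of Csf1r, Tyrobp or Tmem119 was not examined. Macrophage genes are commonly bound by the ETS factor PU.1, so its core, GAGGAA, was searched on both strands. It lay in 5 of 8 windows, against 28.3% of all 32851 windows of that length, and was absent from those of P2ry12 and Cx3cr1 and from 1 of the 2 overlapping windows of Ptprc. Only 3 of the 5 are shown, because Trem2, Aif1 and Cd68 are among the genes that differ on P17 below. They are printed 5′ to 3′ on the strand of the gene, with each match in capitals, as the reverse complement where it lies on the other strand. The matches in Trem2 and Aif1 begin at -40 and -7 from the start site. A match is a description of the letters, and binding was not measured. Cx3cr1 also differs on P17, on the deposited ratio, and has no match. Itgam and 1 window of Ptprc, genes not called on P17 on either ratio, hold matches that are not printed. A relation between matches and the P17 differences was not tested.
Trem2 (chr17:48346151-48346450, + strand): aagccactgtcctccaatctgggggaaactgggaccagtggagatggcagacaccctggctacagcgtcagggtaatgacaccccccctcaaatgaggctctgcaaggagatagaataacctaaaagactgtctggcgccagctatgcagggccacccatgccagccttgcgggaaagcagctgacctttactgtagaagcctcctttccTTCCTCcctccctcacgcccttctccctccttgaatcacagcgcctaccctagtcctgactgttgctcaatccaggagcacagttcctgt
Aif1 (chr17:35176003-35176302, - strand): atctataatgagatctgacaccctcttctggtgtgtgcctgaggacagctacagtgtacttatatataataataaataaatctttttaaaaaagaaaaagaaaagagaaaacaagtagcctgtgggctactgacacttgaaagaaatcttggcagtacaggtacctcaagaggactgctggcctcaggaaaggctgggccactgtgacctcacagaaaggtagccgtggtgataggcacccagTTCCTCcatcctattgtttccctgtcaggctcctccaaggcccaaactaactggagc
Cd68 (chr11:69666121-69666420, - strand): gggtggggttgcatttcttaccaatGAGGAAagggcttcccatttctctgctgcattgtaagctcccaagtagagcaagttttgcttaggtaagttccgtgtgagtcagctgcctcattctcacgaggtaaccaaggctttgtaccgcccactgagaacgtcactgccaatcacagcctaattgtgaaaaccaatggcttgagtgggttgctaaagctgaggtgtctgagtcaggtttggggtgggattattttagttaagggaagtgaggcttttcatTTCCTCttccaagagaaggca

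On P12, at the end of the oxygen exposure, none of the 10 genes passed the test between OIR and control mice. The offset differences ran from -0.06 to 0.28, with a median of 0.09, against a median of 0.00 over all probes. In limma, 0 of 10 were called and 1, Trem2, had an unadjusted p under 0.05, where 0.0233% of all probes were called in either direction. Trem2 is a lipid-sensing receptor of microglia. Its offset ratio ran from -2.36 to -1.62 with a median of -1.90 in control mice, and from -2.47 to -0.96 with a median of -1.59 in OIR mice. The groups overlapped, and the difference was 0.28 (SE 0.116; limma unadjusted p = 0.0216, not called after adjustment). The 10 deposited differences ran from -0.05 to 0.28, with 0 of 10 called, 0 at an unadjusted p under 0.05, and 0.0700% of all probes called.

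On P17 several of the genes were higher in OIR retinas. Csf1r and Aif1 passed the test on the offset ratio, and Cx3cr1, Cd68, Trem2 and Tyrobp passed beside them on the deposited ratio. Differences were positive for 9 of 10 genes on the offset ratio, with a median of 0.38 against 0.00 over all probes, and 2 of 10 were called higher, where 0.803% of all probes were. Deposited differences were positive for 8 of 10, with a median of 0.72 against -0.004 over all probes, and 6 of 10 were called higher, where 1.67% of all probes were. These are whole retinas, so more cells of a type and more RNA per cell cannot be told apart, and neither can microglia and macrophages of the blood.

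**Figure D2:**
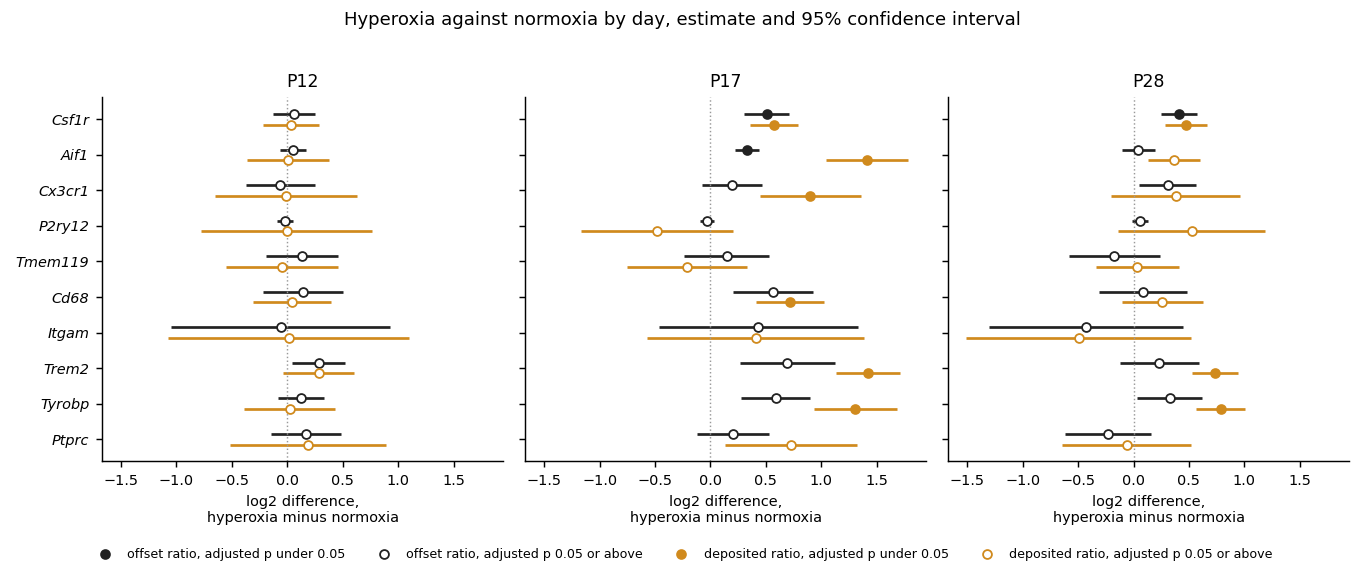
Difference between OIR (hyperoxia) and control (normoxia) mice in log2 retina over reference for the 10 genes on P12, P17 and P28, as estimates with 95% confidence intervals, on the offset ratio (black) and the deposited ratio (orange); filled points had an adjusted p under 0.05. No point is filled on P12; on P17 2 black and 6 orange points are filled, and on P28 1 black and 3 orange.

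Among the receptors, Csf1r encodes the receptor for the growth factors CSF1 and IL-34. On P17 its offset ratio ran from -1.70 to -0.80 with a median of -1.46 in 12 control mice, and from -1.36 to -0.36 with a median of -0.98 in 13 OIR mice. All 13 OIR mice lay above the control median, and 4 above the highest control mouse. The difference was 0.51 (SE 0.099, 95% interval 0.30 to 0.71), or 1.42-fold (limma adjusted p = 0.0058). The deposited difference was 0.57, or 1.49-fold (limma adjusted p = 0.00137). Its 2 other probes did not pass the test on P17, with offset differences of 0.21 and 0.12 and deposited differences of 0.41 and 0.28. The second probe was above background on 77 of 77 arrays and the third on only 25, so dimness does not mark both.

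Trem2 and Tyrobp encode a receptor and its signaling adaptor, DAP12, which form a complex on the surface of microglia and macrophages. On P17 the deposited ratio of Trem2 ran from -4.40 to -3.27 with a median of -4.12 in control mice, and from -2.99 to -2.11 with a median of -2.59 in OIR mice. That of Tyrobp ran from -4.41 to -2.86 with a median of -3.28, and from -2.80 to -1.07 with a median of -2.15. For both genes every OIR mouse was above every control mouse. The difference was 1.42 (SE 0.139) for Trem2, or 2.68-fold (limma adjusted p = 1.83e-07). For Tyrobp it was 1.31 (SE 0.180), or 2.48-fold (limma adjusted p = 3.53e-05). On the offset ratio neither was called, with 0.69 (limma adjusted p = 0.129) and 0.59 (limma adjusted p = 0.0566). There the control mice of P17 were spread widely, Trem2 from -3.23 to -1.02, and overlapped the OIR mice, which ran from -1.92 to -1.13. Both probes were above background in 10 of 12 control and 13 of 13 OIR mice.

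Cx3cr1 is the receptor for fractalkine, a neuronal ligand that restrains microglia. It was brighter in retina than in the reference on every array. The reference was well above background for it on 4 arrays only, so the denominator of its ratio lay near background. Its deposited ratio on P17 ran from 2.86 to 4.70 with a median of 3.87 in control mice, and from 3.85 to 5.27 with a median of 4.49 in OIR mice. The groups overlapped, and 12 of 13 OIR mice lay above the control median. The difference was 0.90, or 1.87-fold (limma adjusted p = 0.022). On the offset ratio it was 0.19 (limma adjusted p = 0.627). A second probe, above background in retina on 77 arrays, gave 0.15 on the offset and 0.30 on the deposited ratio and was not called. The third, above background on 26 arrays, gave -0.01 and 0.16 and was not called either.

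Aif1 encodes IBA1, an actin-binding protein of microglia and macrophages used to stain them. Its offset ratio on P17 ran from -0.69 to -0.10 with a median of -0.42 in control mice, and from -0.31 to 0.12 with a median of -0.09 in OIR mice. Of the 12 control mice, 11 lay below the lowest OIR mouse. The difference was 0.33 (SE 0.0525), or 1.26-fold (limma adjusted p = 0.000619). The deposited ratio had medians of -1.70 in control and -0.29 in OIR mice, and its difference was 1.41, or 2.66-fold (limma adjusted p = 1.02e-05).

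Cd68 encodes a glycoprotein of lysosomes and late endosomes that is raised in phagocytic cells. The deposited ratio on P17 ran from -4.25 to -3.15 with a median of -3.56 in control mice, and from -3.72 to -2.51 with a median of -2.78 in OIR mice. Of 13 OIR mice, 9 were above the highest control mouse. The difference was 0.72, or 1.64-fold (limma adjusted p = 0.00501), against 0.56 on the offset ratio (limma adjusted p = 0.154).

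The remaining genes did not pass the test on P17. P2ry12, a purine receptor of resting microglia, differed by -0.03 on the offset and -0.48 on the deposited ratio, and Tmem119, a membrane protein of resident microglia, by 0.15 and -0.21. Both were near background on most arrays of P17. Ptprc encodes CD45, a phosphatase of white blood cells. On P17 its deposited ratio was above the control median in 13 of 13 OIR mice and above the highest control mouse in 0, and the difference was not called (limma adjusted p = 0.252). Itgam encodes CD11b, the alpha chain of the complement receptor of myeloid cells, and differed by 0.43 on the offset ratio (limma adjusted p = 0.74). Its brightest probe stood apart from every other member at a cut of 0.99, but not at a lower cut. After the group means were removed it correlated at r of at least 0.99 with 24 other probes, of 19 other named genes, among them Pdcd4 at 0.998, and none of the other 15 member probes had any such neighbour. The other 2 Itgam probes, above background on 27 and 1 arrays, differed by -0.01 and 0.01 on the offset and by 0.28 and -0.20 on the deposited ratio, and were not called. The values of the brightest Itgam probe are therefore given, but the gene they measure was not established here.

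**Figure D3:**
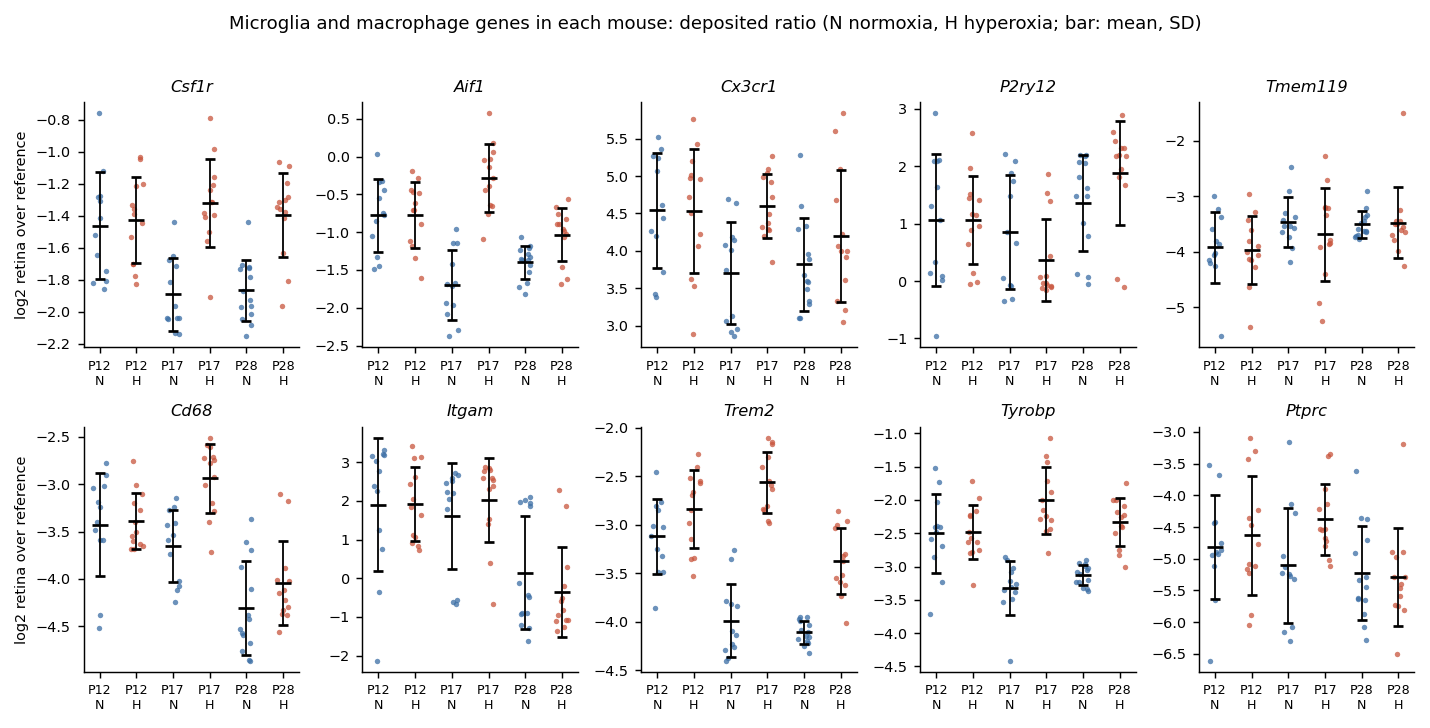
Deposited log2 ratio of retina over reference for each of the 10 genes (brightest probe) in each of the 77 mice, by day and group (N normoxia, blue; H hyperoxia, red), with the mean and SD as bars. On P17 the OIR mice of Trem2 and Tyrobp lie wholly above the control mice, while the groups of P2ry12, Tmem119, Itgam and Ptprc overlap on each day.

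The hyperoxia difference on P17 did not rest on a single slide. Of the 11 slides, 6 held mice of both groups on P17. OIR mice were higher on 6 of 6 for Csf1r, Aif1, Cx3cr1, Cd68 and Tyrobp on both ratios, and for Trem2 on 6 of 6 on the deposited and 5 of 6 on the offset ratio. Within a slide the deposited difference of Trem2 ran from 0.69 to 1.90 and that of Aif1 from 0.77 to 1.88. With the slide as a block, Aif1 (0.32, limma adjusted p = 0.000511), Csf1r (0.47, limma adjusted p = 0.00526) and Cd68 (0.53, limma adjusted p = 0.0303) were called on the offset ratio, where 0.982% of all probes were called higher. The retina channel alone, scaled between arrays, called 6 of 10 genes, those of the deposited ratio, where 1.58% of all probes were called higher. Csf1r differed by 0.48, Aif1 by 0.61, Cx3cr1 by 0.42, Cd68 by 0.42, Trem2 by 0.65 and Tyrobp by 0.67. In the reference channel, which holds the same RNA on every array, 0 of 10 genes were called by limma on P17 and 0 had an unadjusted p under 0.05. Only 1 of all 55681 probes was called there, so 0 of 10 says little about these genes.

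On P28, Csf1r remained higher in OIR retinas, and Trem2 and Tyrobp were higher on the deposited ratio. The offset differences ran from -0.43 to 0.41 with a median of 0.07, and 1 of 10 was called higher, where 0.0557% of all probes were. Csf1r ran from -1.66 to -1.14 with a median of -1.44 in 14 control mice, and from -1.60 to -0.67 with a median of -0.98 in 13 OIR mice. Of 13 OIR mice, 10 were above the highest control mouse. The difference was 0.41 (SE 0.0775), or 1.33-fold (limma adjusted p = 0.0306). Its 2 other probes differed by -0.20 and -0.03 and were not called. For each of them 4 of 13 OIR mice lay above the control median.

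The deposited ratio called 3 of 10 genes higher on P28, where 0.196% of all probes were. Trem2 ran from -4.32 to -3.95 with a median of -4.12 in control mice, and from -4.01 to -2.86 with a median of -3.38 in OIR mice. Tyrobp ran from -3.36 to -2.90 with a median of -3.10, and from -3.00 to -1.75 with a median of -2.26. For each gene 12 of 13 OIR mice were above the highest control mouse. Trem2 differed by 0.73, or 1.66-fold, and Tyrobp by 0.79, or 1.73-fold (limma adjusted p = 0.000303 for both), and Csf1r by 0.47 (limma adjusted p = 0.02). With the slide as a block on the deposited ratio Csf1r was no longer called, at 0.39 (limma adjusted p = 0.188), while Trem2 and Tyrobp were. On the offset ratio Trem2 and Tyrobp differed by 0.23 and 0.32 (limma adjusted p = 0.659 for Tyrobp). With the slide as a block Tyrobp was called there, at 0.41 (limma adjusted p = 0.0193), beside Csf1r at 0.36 (limma adjusted p = 0.0443), where 0.203% of all probes were called higher. On P28 3 slides held both groups, and on 3 of 3 OIR mice were higher for Csf1r, Cd68, Trem2 and Tyrobp on both ratios.

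The change of the hyperoxia difference between days was tested in 1 fit over all 6 groups. From P12 to P17 the offset change was positive for 9 of 10 genes, with a median of 0.35, but 0 of 10 passed in limma and 3 had an unadjusted p under 0.05, where 0.480% of all probes were called. With deposited values 3 of 10 were called with a rising difference, where 1.20% of all probes were. Aif1 changed by 1.41 (limma adjusted p = 1.04e-05), Trem2 by 1.14 (limma adjusted p = 1.81e-05) and Tyrobp by 1.29 (limma adjusted p = 0.000159), while Csf1r changed by 0.54 and missed the threshold (limma adjusted p = 0.0501). With the slide as a block on the offset ratio, Csf1r (0.53, limma adjusted p = 0.00415), Aif1 (0.28, limma adjusted p = 0.0217) and Tyrobp (0.50, limma adjusted p = 0.0355) were called, where 0.778% of all probes were called with a rising difference.

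From P17 to P28 the offset change was negative for 8 of 10 genes, with a median of -0.30. In limma 0 of 10 were called and 1 had an unadjusted p under 0.05, where 0.278% of all probes were called. Aif1 was the 1 gene of 10 called on the deposited ratio, with a change of -1.05 (limma adjusted p = 0.00521), where 0.472% of all probes were called with a falling difference. Its deposited difference was 1.41 on P17, and its medians on P28 were -1.36 in control and -0.96 in OIR mice. With the slide as a block on the deposited ratio Trem2 was called beside it, at -0.78 (limma adjusted p = 0.0474). For the other 8 genes a smaller difference on P28 than on P17 was not shown in these fits.

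**Figure D4:**
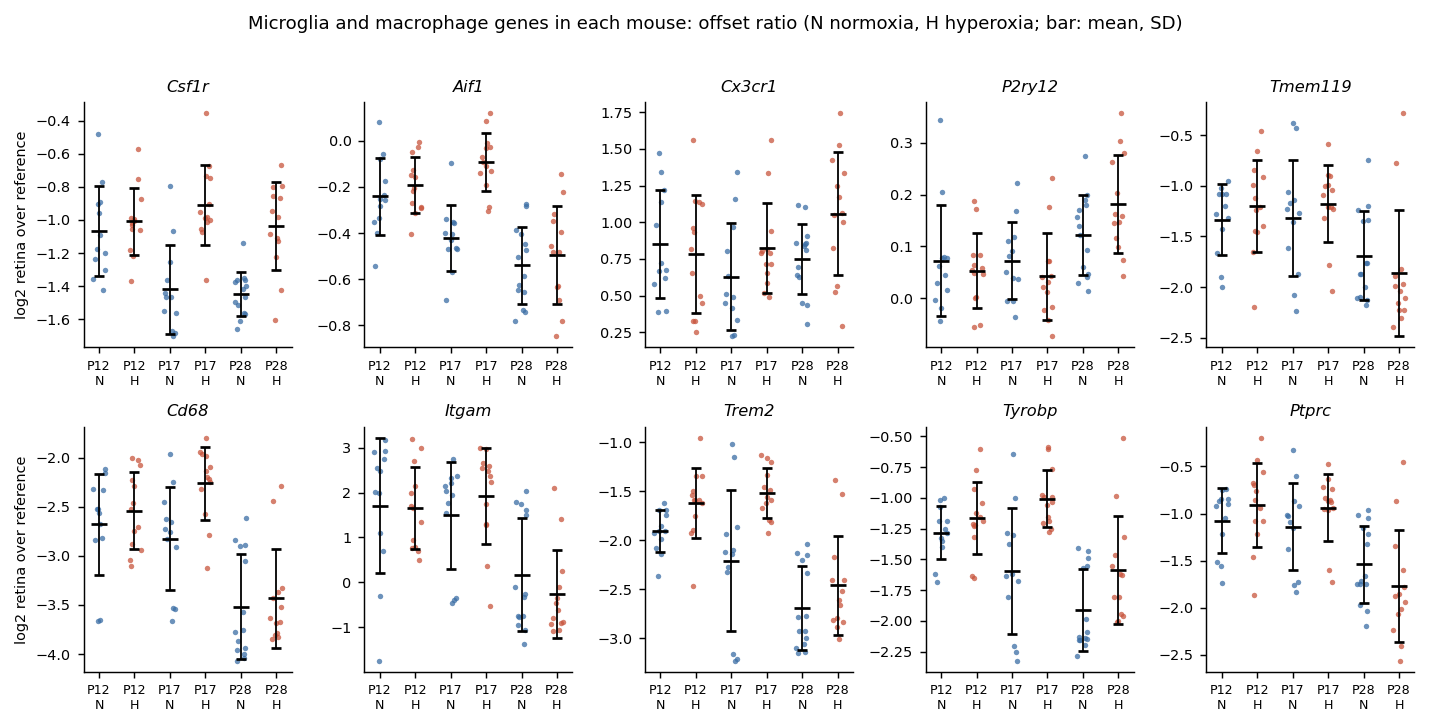
Offset log2 ratio of retina over reference for each of the 10 genes (brightest probe) in each of the 77 mice, by day and group (N normoxia, blue; H hyperoxia, red), with the mean and SD as bars; each panel has its own scale. On P17 the OIR mice of Csf1r, Aif1, Trem2 and Tyrobp lie above the control median, with 11 of 12 control mice of Aif1 below the lowest OIR mouse, and Cd68, Itgam and Trem2 lie lower on P28 than on P17.

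In control mice several of the genes fell with age. From P12 to P17 Csf1r fell on the offset ratio by 0.35, from a median of -1.13 to -1.46 (limma adjusted p = 0.0358), and was the 1 gene of 10 called lower, where 0.659% of all probes were. On the deposited ratio 4 of 10 were called lower, where 1.30% of all probes were. Trem2 fell by 0.87 (limma adjusted p = 5.68e-06), Aif1 by 0.92 (limma adjusted p = 7.52e-05), Tyrobp by 0.81 (limma adjusted p = 0.00124) and Csf1r by 0.43 (limma adjusted p = 0.012). The median of Trem2 went from -3.07 on P12 to -4.12 on P17 and was -4.12 on P28. In OIR mice it was -2.70, -2.59 and -3.38 on the same days.

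From P17 to P28 in control mice, Cd68 (-0.69, limma adjusted p = 0.00646), the Itgam probe (-1.33, limma adjusted p = 0.0394) and Trem2 (-0.48, limma adjusted p = 0.0496) were lower on the offset ratio. These were 3 of 10 genes, where 5.38% of all probes were called lower and 13.4% in either direction. Trem2 was not called with the slide as a block, at -0.29, nor on the deposited ratio, where Cd68 (-0.65, limma adjusted p = 0.00405) and the Itgam probe (-1.47, limma adjusted p = 0.0323) made 2 of 10, beside 8.01% of all probes. This comparison spans the change in array brightness named above, and its part was not tested.

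Ligands and other genes of these pathways were examined from lists. Beside the list counts here and below, 0.803% of all probes were called higher on P17 on the offset ratio and 1.67% on the deposited ratio. On P28 0.196% were called higher on the deposited ratio. Of 8 genes of CSF1R and TREM2 signaling, 0 were called by limma on P17 on the offset ratio and 1 had an unadjusted p under 0.05, with a median of 0.18. With deposited values 3 were higher. Csf1, a ligand of CSF1R, rose 1.69-fold (limma adjusted p = 1.84e-07), Vav1, a guanine nucleotide exchange factor of blood cells, 2.21-fold (limma adjusted p = 3.94e-05) and Plcg2, a phospholipase downstream of TREM2, 1.41-fold (limma adjusted p = 0.0142). Csf1 was still higher on P28, at 1.36-fold (limma adjusted p = 0.00275). Il34, the other CSF1R ligand, rose in control mice from P12 to P17 by 0.38 on the offset ratio (limma adjusted p = 6.3e-05), in which interval Csf1r fell. Cx3cl1, the ligand of CX3CR1, rose in that interval by 0.82 (limma adjusted p = 5.56e-11). Of the 4 genes of fractalkine and purine signals, 1 was called on P17. It was Gnai2, an inhibitory G protein subunit made by most cells, at 1.74-fold (limma adjusted p = 1.18e-06).

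Genes of resting microglia did not pass the test on P17. Of 12 measured genes of the homeostatic list, among them Gpr34, 0 were called by limma on either ratio, with 2 at an unadjusted p under 0.05 on each, and the medians were 0.01 on the offset and 0.06 on the deposited ratio. Of 13 measured genes linked to phagocytosis and disease-associated microglia, 3 were called higher on the offset ratio. These were Lgals3, a galectin, at 2.09-fold (limma adjusted p = 0.00288), Cd9, a tetraspanin, at 1.53-fold (limma adjusted p = 0.00389) and Ctsd, a lysosomal protease, at 1.32-fold (limma adjusted p = 0.0085). The deposited ratio called Axl and Ctss beside them, at 1.46-fold and 1.48-fold. On P28 the deposited ratio called Ctss (1.53-fold, limma adjusted p = 0.0471) and Cd9 (1.40-fold, limma adjusted p = 0.0449). Several of these genes are also made by glia and vessels. Of 6 transcription factors of myeloid cells, Irf8 was called on P17, at 1.33-fold (limma adjusted p = 0.0101).

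Markers of other cells were read on the same arrays. Of 8 genes of perivascular and other macrophages, Stab1, a scavenger receptor, was called on P17 at 1.44-fold (limma adjusted p = 1.06e-05), and Pf4 and F13a1 were called beside it on the deposited ratio, at 2.78-fold and 3.06-fold. Of 5 measured monocyte genes, only Fn1 was called, at 3.39-fold (limma adjusted p = 5.85e-09). Fibronectin is also made by endothelial cells and glia, and Ly6c2 was not matched. Of 5 neutrophil genes and 8 genes of lymphocytes and NK cells, 0 were called by limma on either ratio on P17, with 0 at an unadjusted p under 0.05 on the offset and 1 in each list on the deposited ratio. Of 10 inflammatory mediators 0 were called by limma on the offset ratio, with 1 at an unadjusted p under 0.05, and on the deposited ratio Ccl2 (1.85-fold) and Nos2 (1.54-fold) were higher. Of 6 genes of reactive glia 5 were called on the offset ratio, where 0.803% of all probes were called higher, with a median of 0.92. They were Vim (2.28-fold, limma adjusted p = 2e-08), Cp (2.19-fold), Gfap (1.96-fold), Lcn2 (1.81-fold) and Timp1 (1.81-fold, limma adjusted p = 0.0461, and not called with the slide as a block). Of 7 endothelial genes 0 were called by limma on either ratio, with 2 at an unadjusted p under 0.05 on each, and Cdh5 was called with the slide as a block on the offset ratio, at 0.42 (limma adjusted p = 0.0214). Of 6 rod genes 0 were called on either ratio, with 1 at an unadjusted p under 0.05 on the offset and 0 on the deposited ratio. The part of these cells in the differences of the 10 genes was not tested.

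**Figure D5:**
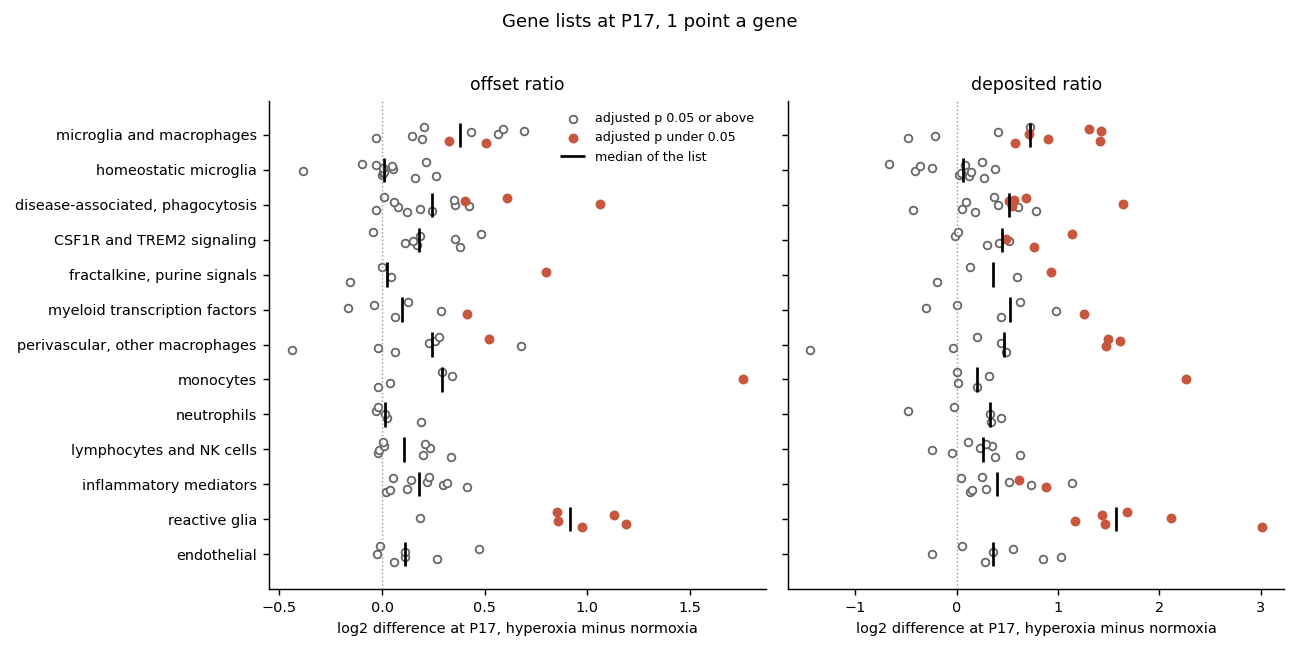
Difference between OIR and control mice on P17 in log2 retina over reference, with 1 point a gene, for the 10 genes (top) and 12 other lists, on the offset ratio (left) and the deposited ratio (right); red points had an adjusted p under 0.05 and the black line is the median of the list. The 10 genes have medians of 0.38 and 0.72, the homeostatic list lies near 0, and reactive glia lie farthest to the right.

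Within groups, the genes were compared across mice after the group means were removed, over 45 pairs. On the offset ratio most genes moved with how bright the array was, some up and some down. The correlation with the log2 number of probes above background was negative for Tmem119 (r = -0.89, rho = -0.89), Cd68 (r = -0.88, rho = -0.86), Ptprc (r = -0.85, rho = -0.83), Trem2 (r = -0.82, rho = -0.80), the Itgam probe (r = -0.77, rho = -0.76) and Tyrobp (r = -0.74, rho = -0.68). It was positive for Cx3cr1 (r = 0.71, rho = 0.69) and P2ry12 (r = 0.70, rho = 0.71). Each of these 8 had a permutation p of 1e-05, the smallest possible, for both measures, and an adjusted p over 10 genes of 1.25e-05. The permutations did not keep the arrays of a slide together. With the slide removed, r was -0.70 for Tmem119, -0.72 for Cd68, -0.56 for Ptprc and -0.46 for Trem2. It was -0.55 for the Itgam probe, -0.38 for Tyrobp, 0.35 for Cx3cr1 and 0.18 for P2ry12. Leaving out the 2 farthest arrays gave r of -0.86 for Cd68 and -0.78 for Trem2. The deposited ratio was not free of it. There Cd68 (r = -0.78, rho = -0.75), the Itgam probe (r = -0.76, rho = -0.75), Ptprc (r = -0.70, rho = -0.72) and P2ry12 (r = 0.77, rho = 0.77) had the same permutation p of 1e-05, and Tyrobp moved up with brightness (r = 0.35, rho = 0.38, permutation p = 0.00111 and 0.00067). For Trem2 it was not seen on that ratio (r = -0.0019, rho = 0.055, permutation p = 0.987 and 0.627). With the slide removed there, r was -0.59 for Cd68, -0.47 for the Itgam probe and -0.17 for Ptprc. It was 0.33 for P2ry12 and 0.21 for Tyrobp. Pairs therefore share this brightness, and each is given with the slide removed and on the deposited ratio too.

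Trem2 and Tyrobp correlated at r = 0.87 and rho = 0.83 on the offset ratio over 77 mice (permutation p = 1e-05 for both, adjusted over 45 pairs 1.5e-05 and 1.61e-05). Without the 2 mice farthest from the median of Trem2, r was 0.85, and with the slide removed 0.78. On the deposited ratio r was 0.41 and rho 0.46 (permutation p = 0.00106 and 0.00021, adjusted 0.00318 and 0.000675), r was 0.43 without the 2 farthest mice, and 0.44 with the slide removed. Csf1r and Trem2 correlated at r = 0.71 and rho = 0.71 on the deposited ratio (permutation p = 1e-05 for both, adjusted 6.43e-05 and 5e-05), with 0.68 without the 2 farthest mice and 0.69 with the slide removed. Csf1r and Tyrobp gave r = 0.57 and rho = 0.59 (permutation p = 1e-05 for both, adjusted 6.43e-05 and 5e-05), with 0.52 and 0.67. Over all 45 pairs 28 correlations were positive on the offset ratio and 25 on the deposited ratio, with medians of 0.36 and 0.06.

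The genes most like the members were ranked by their correlation with the mean of the 8 members detected on most arrays, over 77 mice and 21144 other genes, as a description. That mean left out P2ry12 and Ptprc and held Tmem119, detected on 39 arrays, and the brightest Itgam probe. The r of the Itgam probe with it was 0.53 on the offset ratio, 0.03 on the deposited ratio and -0.16 in the retina channel alone. On the deposited ratio Mpeg1, a pore-forming protein of macrophages, led at r = 0.73, followed by Cyba, a subunit of the phagocyte NADPH oxidase, at 0.70 and B2m at 0.67. With the slide removed Mpeg1 (0.70), Cyba (0.66) and Ctsz (0.64) led. In the retina channel alone C1qc, a chain of complement C1q, led at 0.84, followed by Vwf, an endothelial gene, at 0.76 and Kbtbd11 at 0.75. With the slide removed C1qc (0.79), Mpeg1 (0.73) and Igfbp2 (0.72) led there, and the endothelial genes Vwf (0.71) and Cldn5 (0.70) were among the leading 7. On the offset ratio Cyth4 (0.91), Ehbp1l1 (0.91) and Gusb (0.91) led, and with the slide removed Ehbp1l1 (0.80), Gusb (0.77) and Oas1a (0.77). The leading genes differed with the scale. The correlation with array brightness described above was computed for the members only, so the part of brightness in these rankings was not tested.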

How the data were processed

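The 2-colour intensity files (Agilent Feature Extraction 10.7.3.1, per the file headers) hold median signals and backgrounds as deposited. The deposited value table holds log2 ratios of the authors' processed signals, which matched log2 Cy3 over Cy5 within 0.001 for at least 99.66% of probes on each array. From the intensities, normexp background correction (offset 50) and loess within each array were run in limma 3.58.1 (R 4.3.3), with control and outlier spots weighted 0 in the loess. OIR and control mice were compared within each day by limma's moderated test, and changes between days in 1 fit of 6 groups, with Benjamini-Hochberg adjustment over 55681 probes. The number of arrays limits the precision. Of 200 simulated log2 changes of 1 per day, 196, 195 and 198 were recovered with 0 false calls. A change of 1 exceeds every offset difference of the 10 genes between OIR and control mice, of which the largest was 0.69. The simulation therefore cannot tell how often changes of the size seen in these genes are missed. A gene that was not called is not shown to be unchanged. Permutation tests drew 100000 orders within groups, without regard to slides. All members were named, and every list gene called on P17 on the offset ratio, with other called list genes in part. Members and lists were chosen with earlier results of these data known, so no count here is independent support. P-values measure the spread between mice and do not account for litters. Alternatives were the deposited ratio, other background corrections, the retina channel alone, the slide as a block, a filter on dim probes, the mean of a gene's probes, array weights and a joint fit.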

Additional observations from a re-analysis of the deposited data

Results flagged for a closer look

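On the offset ratio no member's hyperoxia difference changed between days past the threshold without the slide as a block, and with it Csf1r, Aif1 and Tyrobp changed from P12 to P17. Genes of the accompanying lists did, tested as the change of the difference between OIR and control mice in limma with Benjamini-Hochberg adjustment. From P12 to P17 the difference rose for Gnai2 by 0.80 (adjusted p = 0.000855), Stab1 by 0.61 (1.87e-09), Fn1 by 2.37 (5.85e-19), Cdh5 by 0.57 (0.00175), Gfap by 0.94 (1.43e-07), Vim by 1.18 (2.44e-07) and Cp by 1.06 (3.4e-06). From P17 to P28 it changed for Mertk by 0.22 (adjusted p = 0.0248), Stab1 by -0.43 (5.69e-05), Fn1 by -1.09 (7.81e-06), Gfap by -0.61 (0.00359), Vim by -0.98 (5.69e-05) and Cp by -0.64 (0.0401). Both tests share the P17 mice. Cdh5 is a junction protein of endothelial cells, Mertk a receptor for the uptake of dying cells, and Gfap, Vim and Cp are made by Müller glia and astrocytes.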

How the results depend on the processing

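On P17, where 2 of 10 genes were called, the count was 6 with the deposited ratio, 5 with an offset of 0, 5 without background subtraction, 6 with the retina channel alone, 5 with array weights, 4 with all 6 groups in 1 fit and 1 with the mean of a gene's probes. On P28, where 1 was called, it was 3 with the deposited ratio, 3 with an offset of 0, 3 with the retina channel, 2 with the slide as a block and 0 with the mean of probes. For the change from P12 to P17, where 0 were called, it was 3, 4, 4 and 3 with the deposited ratio, an offset of 0, the retina channel and the slide, and 1 without background subtraction. For P17 to P28 it was 1 with each of the deposited ratio, an offset of 0 and the retina channel, against 0. In control mice from P12 to P17 it was 4 with each of those, 2 with the slide, and 0 with the mean of probes or array weights, against 1. From P17 to P28 it was 1 with the retina channel and 9 with array weights, against 3. For that interval the main fit already called 13.4% of all probes in either direction. The deposited ratio with the slide as a block, chosen after seeing the data like the other scales for the correlations, called 6 on P17, 2 on P28, 4 and 2 for the changes and 4 in control mice from P12 to P17. On P12 0 genes were called by limma under every alternative run, with 0 or 1 at an unadjusted p under 0.05; where the mean of probes or array weights gave 0, 2 (P28) and 3 genes had one. The share of all probes called is not given for most of these alternatives, array weights among them. Their counts therefore describe the processing and are no result about the members. The cause of these differences was not tested.

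Tmem119 changed sign on P17, to -0.21 with the deposited ratio, -0.065 with an offset of 0, -0.13 with the retina channel and -0.24 with the deposited ratio and slide, and on P28 to 0.035 with the deposited ratio. Itgam on P28 became 0.029 with the slide and 0.023 with the deposited ratio and slide, and Ptprc 0.013 with the retina channel and 0.16 with the deposited ratio and slide. From P17 to P28 in control mice Vav1 became 0.066, Nrl 0.16 and Rcvrn 0.063 with the retina channel, and Pde6b -1.0 with the deposited ratio, -0.15 with an offset of 0 and -0.68 with the deposited ratio and slide. Of the other values for single genes, 599 kept direction and side, 71 newly passed the threshold and 46 no longer did. Over all probes 631 were called on P17 and 1471 with the deposited ratio, 13 and 39 on P12, and on P28 0.0611% and 0.203% of them (0.219% with the slide as a block). Dim genes limit what is measured, with Ptprc above background on 12 of 77 arrays. No paired analysis was possible because the replicate numbers are unique mouse numbers that do not link the groups.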

Other observations

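From P17 to P28 in control mice, 2 of 10 inflammatory mediators were called lower on the offset ratio, where 5.38% of all probes were. Ccl2, a chemokine that draws monocytes, fell by 1.04 (limma adjusted p = 0.0183; above background on 38 of 77 arrays) and Ccl3 by 0.86 (limma adjusted p = 0.0276; on 33). With the slide as a block the falls were 0.65 and 0.43 and were still called. Mef2c, a transcription factor of microglia and of neurons, rose by 0.45 over the same interval (limma adjusted p = 9.78e-09; on 37). Hcst, the adaptor DAP10, fell by 0.42 (limma adjusted p = 0.0115; on 45) and Bin1 by 0.49 (limma adjusted p = 0.0019; on 77). The brighter P28 arrays bear on these values as on the members, and their part was not tested.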
